A study of Mus musculus with 32 samples.

Results

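The DNA replication genes described here are 41 genes whose products license, fire, copy and supply the replication fork, chosen as a named list and matched by symbol in the count files. All 41 were present among the 26331 rows that name a gene, and all 41 passed the filter on low counts, so that no gene of the list is missing from any comparison. The lowest count of any of them in any library was 55, for Orc1 in a wild-type FVBxBALB/c library at E15.5.

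RNA was sequenced from the dorsal telencephalon of mouse embryos at E12.5 and from the cortex at E15.5 (E, embryonic day), in 32 libraries that form 8 groups. On the C57BL/6 background, embryos labelled as Kat6b knockout (Kat6b-/-) were set against wild type, with 5 libraries of each genotype at E15.5 and 3 of each at E12.5. On a mixed FVBxBALB/c background, embryos carrying the transgene Tg(Kat6b), made to overexpress Kat6b, were set against wild type, with 4 libraries per genotype at each age. Kat6b encodes a histone acetyltransferase, and the study asked how its loss and its gain change gene expression in the developing cortex. The C57BL/6 labels name a litter and an embryo for every library, whereas the FVBxBALB/c labels give neither, so the p-values there measure the spread between libraries, which may be technical. The mixed background was used because the transgenic mice were not viable when inbred, per the study's design text. The promoter that drives the transgene and the part of Kat6b that the knockout allele lacks are not stated in the labels. All C57BL/6 libraries were 1 sequencing batch and all FVBxBALB/c libraries another, so background and batch cannot be told apart, and levels were compared only within a background.

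Before S phase, the origin recognition complex with Cdc6 and Cdt1 loads the Mcm2 to Mcm7 helicase onto DNA, and Cdc45 with the GINS complex later turns it into a moving helicase. Primase and the polymerases then copy the strands, with a sliding clamp, a clamp loader and single-strand binding proteins, while ribonucleotide reductase and thymidylate synthase supply nucleotides. In the developing cortex these genes are used by dividing progenitors, which line the ventricle and give rise to neurons that no longer divide, and many of them are known targets of E2F transcription factors at the start of S phase.

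Counts assigned to named genes ranged from 10383066 to 49508669 per library. Kat6b had 178 ± 14.6 CPM (counts relative to the size of the library, itself scaled by TMM, edgeR's trimmed mean) in labelled knockout cortex at E15.5 and 174 ± 17.9 CPM in wild type (SD, n = 5 each), and 153 ± 34.9 CPM in labelled knockout against 171 ± 20.8 CPM in wild type at E12.5 (SD, n = 3 each). Counts over the whole gene thus did not tell the labelled knockout from wild type, and they do not check that label, since the deleted part is not known here. In Tg(Kat6b) tissue, Kat6b was 3.62-fold (95% interval 2.99 to 4.38) of the wild-type level at E15.5 and 3.09-fold (95% interval 2.56 to 3.73) at E12.5. Emx1, a marker of the dorsal telencephalon, was expressed in every library, at 28.0 CPM or more. Replicate 5 of either C57BL/6 genotype at E15.5 has a data column named for E12.5, and the tissue of the labelled knockout replicate 5 is given as dorsal telencephalon although its title says cortex. Labelled knockout replicates 3 and 4 at E15.5 were the most alike of all pairs within a group, with a median chi-square per gene of 0.834 where counting noise alone gives 0.455 and the next closest pair had 1.32, although their labels name different litters. By the mean chi-square per gene, which a few genes can set, the pair was not alike (395), and the 4 pairs that hold replicate 3 had the 4 highest means within any group, 277 to 757. Replicate 3 also stood apart in its TMM scaling factor, 0.782 where the other 31 libraries had 0.941 to 1.08, and in its share of counts on rows without a gene name, 2.00% where they had at most 0.493%. Replicates 3 and 4 differ beyond counting noise, which does not tell whether they share a source, and were kept as separate libraries.

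The promoters of 33 of the 41 genes were in the RefSeq promoter table (GRCm38.p6, the assembly behind mm10), as 39 windows of 300 bases, from 250 bases before the transcript start to 50 after it. The windows were searched on both strands for the E2F letters TTTCCCGC, TTTCGCGC, TTTGGCGC and TTTGCCGC, for CCAAT, and for the cell cycle element CHR (TTTGAA or TTCGAA). The E2F letters occurred in 14 of 33 genes (42.4%), against 575 of 17491 protein-coding genes (3.29%) and 1 of 25 genes of a mitosis and spindle list (4%). The CHR letters occurred in 7 of the 33 replication genes (21.2%), against 3538 protein-coding genes (20.2%) and 19 of the 25 mitosis genes (76%). CCAAT was found in 21 of the 33 genes (63.6%), against 7401 protein-coding genes (42.3%) and 19 of the 25 mitosis genes (76%). These matches are a description of the letters and not evidence that a factor binds there.

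Promoters of 4 genes named in the results below are shown, because they hold the E2F letters counted above. They are written 5′ to 3′ on the gene's strand, with the E2F letters, or their reverse complement, in capitals. The first base of the match lies at 33 in Cdt1, 11 in Pole2, -185 in Uhrf1 and -138 in Pola1, where the first transcribed base is 1 and the base before it is -1. The windows span chr8:122567765-122568064 (plus strand) for Cdt1, chr12:69228141-69228440 (minus) for Pole2, chr17:56304063-56304362 (plus) for Uhrf1 and chrX:93632106-93632405 (minus) for Pola1. The table has a pair of windows for Uhrf1: the one printed belongs to a start inside the annotated gene, and the one at the gene's own start holds none of the E2F letters. The starts of the printed Pole2 and Pola1 windows also lie inside the annotated genes. The Pola1 match at -138 is itself within the annotated gene (chromosome X, 93304766 to 93632387). So is the Uhrf1 match at -185 (chromosome 17, 56303337 to 56323486).
Cdt1: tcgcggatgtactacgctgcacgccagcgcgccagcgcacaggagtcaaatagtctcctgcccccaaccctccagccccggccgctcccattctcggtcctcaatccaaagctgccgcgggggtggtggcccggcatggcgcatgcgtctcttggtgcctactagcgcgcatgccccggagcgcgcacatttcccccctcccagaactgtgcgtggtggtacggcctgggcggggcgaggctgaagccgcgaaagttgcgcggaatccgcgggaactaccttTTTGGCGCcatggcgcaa
Pole2: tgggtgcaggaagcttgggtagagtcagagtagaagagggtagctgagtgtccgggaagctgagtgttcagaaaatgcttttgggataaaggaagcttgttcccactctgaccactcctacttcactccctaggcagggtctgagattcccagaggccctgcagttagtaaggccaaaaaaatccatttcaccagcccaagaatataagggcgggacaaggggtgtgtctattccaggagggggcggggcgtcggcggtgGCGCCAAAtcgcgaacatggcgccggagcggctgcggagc
Uhrf1: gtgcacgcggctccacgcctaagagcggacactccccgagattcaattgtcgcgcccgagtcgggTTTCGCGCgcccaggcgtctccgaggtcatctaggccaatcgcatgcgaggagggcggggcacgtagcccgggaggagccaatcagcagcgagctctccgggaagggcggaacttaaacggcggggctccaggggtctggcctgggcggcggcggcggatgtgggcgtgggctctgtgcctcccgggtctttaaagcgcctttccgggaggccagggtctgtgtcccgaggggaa
Pola1: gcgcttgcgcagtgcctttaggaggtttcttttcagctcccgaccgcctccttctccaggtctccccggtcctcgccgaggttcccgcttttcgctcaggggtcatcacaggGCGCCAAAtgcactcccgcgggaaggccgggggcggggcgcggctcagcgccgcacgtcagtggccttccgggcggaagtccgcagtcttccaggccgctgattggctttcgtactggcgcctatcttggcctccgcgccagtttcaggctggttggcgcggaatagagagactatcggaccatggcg

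Mcm6, a helicase subunit, held 3 E2F matches, starting at -110, -106 and -47, of which the first and second overlap. Mcm3, Mcm5, Mcm7 and Rfc3 held 2 each, of which those of Mcm5, at -153 and -149, overlap. The remaining 9 genes with a match (Orc1, Lig1, Pold1, Gins3, Cdc6 and the 4 printed ones) held 1. Cdc45, Rfc4, Fen1 and Rrm2, which also led their role classes below, were in the table without these letters in the window.

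The replication genes were lower at the later age. With cortex at E15.5 set against dorsal telencephalon at E12.5, 41 of 41 genes fell in labelled knockout C57BL/6 tissue and 41 of 41 in wild-type C57BL/6 tissue, 40 of 41 fell in Tg(Kat6b) tissue and 38 of 41 in wild-type FVBxBALB/c tissue, and none rose. Of all genes tested, 27.0%, 28.2%, 22.5% and 25.1% fell in these 4 comparisons and 29.4%, 28.6%, 23.8% and 25.1% rose. The median log2 fold change of the 41 genes was -1.13 in labelled knockout, -1.09 in C57BL/6 wild type, -0.83 in Tg(Kat6b) and -0.93 in FVBxBALB/c wild type, where the median of all genes lay between -0.029 and -0.008. Genes were called at an adjusted p below 0.05 by edgeR's quasi-likelihood test. The 2 ages also differ in the dissected tissue, and in bulk tissue fewer dividing cells and less RNA per cell cannot be told apart.

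**Figure D1:**
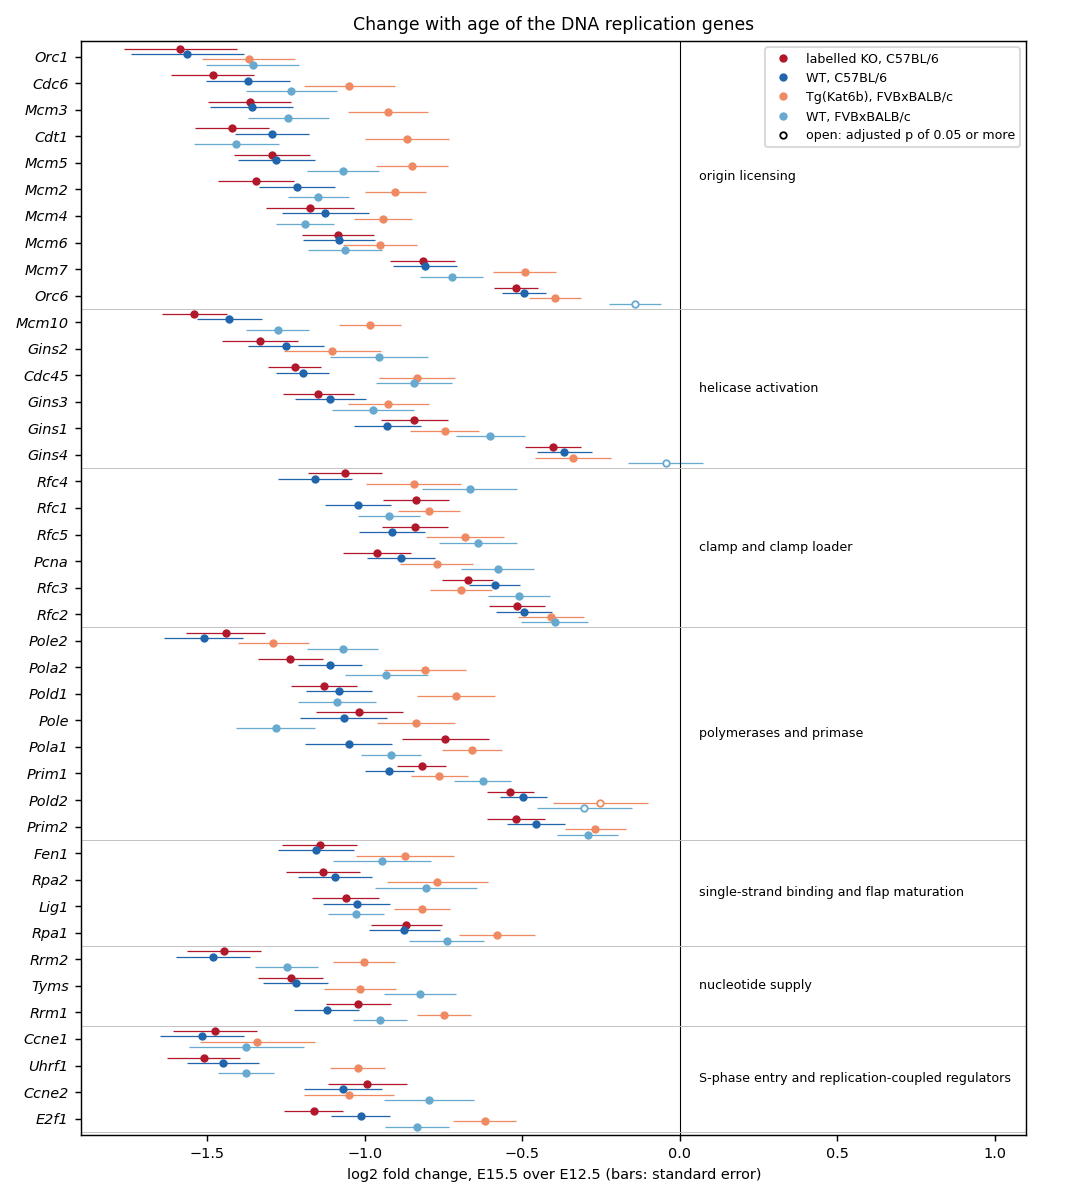
Log2 fold change of each of the 41 genes, cortex at E15.5 over dorsal telencephalon at E12.5, in the 4 combinations of genotype and background, grouped by role; bars are standard errors and open circles missed an adjusted p of 0.05. Every estimate lies below 0, with Gins4 and Orc6 in FVBxBALB/c wild type nearest to it.

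Summed over the 41 genes, the level was 2246, 2391, 1977, 2004 and 2392 CPM in the 5 labelled knockout libraries at E15.5, against 5442, 4534 and 3912 CPM in the 3 at E12.5. Wild-type C57BL/6 libraries held 2332, 2318, 2339, 2520 and 2401 CPM at E15.5 and 5589, 4594 and 4868 CPM at E12.5. Every E15.5 library of the background lay below every E12.5 library. Tg(Kat6b) libraries held 2819, 2799, 2561 and 2578 CPM at E15.5 and 4133, 5030, 4809 and 4664 CPM at E12.5, and FVBxBALB/c wild-type libraries 2561, 2315, 2589 and 2493 CPM at E15.5 and 3963, 4678, 4794 and 5528 CPM at E12.5. The ages did not overlap in these libraries either.

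**Figure D2:**
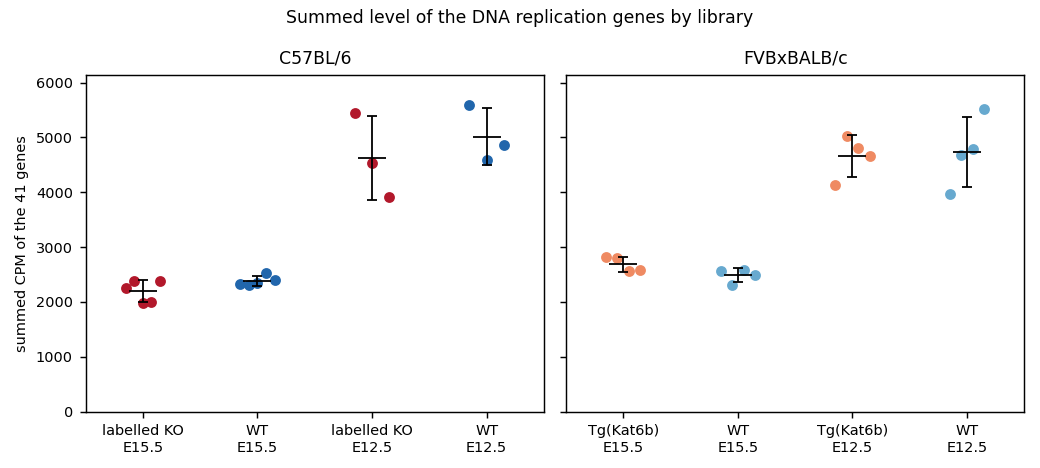
Summed CPM of the 41 replication genes in each library (points), with the mean and SD of each group (bars), by genotype and age within each background. E15.5 libraries lie between 1977 and 2819 CPM and E12.5 libraries between 3912 and 5589 CPM.

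Among the 10 licensing genes, all 10 fell in both C57BL/6 genotypes and in Tg(Kat6b), and 9 of 10 fell in FVBxBALB/c wild type. Coordinates here and below are those of the RefSeq genes on GRCm38.p6. Cdt1 (chromosome 8, 122568015 to 122573130), which brings the helicase to origins, had 25.7, 25.5, 27.3, 25.9 and 25.8 CPM in wild-type C57BL/6 cortex at E15.5, against 58.3, 65.2 and 68.2 CPM at E12.5. Cdt1 at E15.5 stood at 0.408-fold (95% interval 0.343 to 0.484) of its E12.5 level (log2 fold change -1.29 ± 0.12 (SE), adjusted p = 1.66e-07). Cdt1 was lower in every E15.5 library than in any E12.5 library of the same background, in both genotypes. Its labelled knockout libraries held 19.4 to 24.9 CPM at E15.5 and 47.2 to 75.9 CPM at E12.5, and the log2 fold change was -1.42. In FVBxBALB/c it was -0.87 in Tg(Kat6b) and -1.41 in wild type. The largest fall of any of the 41 genes in C57BL/6 was that of Orc1, the largest subunit of the origin recognition complex, with a log2 fold change of -1.59 in labelled knockout and -1.56 in wild type. Of the helicase subunits, Mcm3 fell most (-1.36 in C57BL/6 wild type) and Mcm7 least (-0.81). Cdc6, which loads the helicase together with Cdt1, had -1.37 in the same comparison.

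Orc6, the smallest subunit of the origin recognition complex (chromosome 8, 85299632 to 85308279), was the exception among the licensing genes. In FVBxBALB/c wild type it had 58.9, 60.5, 65 and 58.8 CPM at E15.5 and 66.8, 72.1, 58.3 and 71.3 CPM at E12.5, which overlap (log2 fold change -0.14, 95% interval -0.32 to 0.034, adjusted p = 0.169). Its fall passed the threshold in Tg(Kat6b) (-0.40, adjusted p = 0.000986), in labelled knockout (-0.52, adjusted p = 8.34e-06) and in C57BL/6 wild type (-0.49, adjusted p = 1.62e-05), each smaller than the median of the list.

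All 6 genes of helicase activation fell in labelled knockout, C57BL/6 wild type and Tg(Kat6b), and 5 of 6 in FVBxBALB/c wild type. Cdc45 (chromosome 16, 18780447 to 18811972), which joins the Mcm ring and GINS to form the active helicase, had 24.1, 24.1, 25.8, 25.7 and 25 CPM in wild-type C57BL/6 cortex at E15.5, against 61.4, 53.7 and 56.7 CPM at E12.5. Cdc45 at E15.5 stood at 0.436-fold (95% interval 0.386 to 0.493) of its E12.5 level (log2 fold change -1.20 ± 0.084 (SE), adjusted p = 1.44e-08). Cdc45 was lower in every E15.5 library than in any E12.5 library of the same background, in both genotypes. Cdc45 libraries of labelled knockout held 20.7 to 24.8 CPM at E15.5 and 47.2 to 60.4 CPM at E12.5 (log2 fold change -1.22), and those of Tg(Kat6b) 27.1 to 34.3 CPM at E15.5 and 47.5 to 61.1 CPM at E12.5 (-0.83). Mcm10, which acts at the firing of origins, fell further, with log2 fold changes of -1.54 in labelled knockout and -1.43 in C57BL/6 wild type. The 4 subunits of GINS did not move alike. In C57BL/6 wild type Gins2 fell by 1.25, Gins3 by 1.11, Gins1 by 0.93 and Gins4 by 0.37 on the log2 scale.

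Gins4 (chromosome 8, 23226610 to 23237668) had the change nearest to 0 of the list in 3 of the 4 comparisons. Its FVBxBALB/c wild-type libraries held 36.5, 34.5, 43.1 and 39.1 CPM at E15.5 and 35.8, 39.6, 33.9 and 48.6 CPM at E12.5 (log2 fold change -0.045, 95% interval -0.30 to 0.21, adjusted p = 0.774). In Tg(Kat6b) it had 41.3, 35.6, 33 and 37 CPM at E15.5 and 38.7, 51, 48.2 and 48 CPM at E12.5, where the libraries overlap and the fall passed the threshold narrowly (-0.34, adjusted p = 0.0286); it missed the threshold in 6 of 8 refits that left out 1 of these libraries, with adjusted p from 0.0501 to 0.0913.

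All 8 polymerase and primase genes fell in C57BL/6, and 7 of 8 fell in Tg(Kat6b) and in FVBxBALB/c wild type. Pole2 (chromosome 12, 69201773 to 69228205), a subunit of the leading-strand polymerase epsilon, had 10.7, 11.5, 9.58, 13.1 and 10.2 CPM in wild-type C57BL/6 cortex at E15.5, against 36.2, 28.6 and 29.2 CPM at E12.5. Pole2 at E15.5 stood at 0.351-fold (95% interval 0.292 to 0.422) of its E12.5 level (log2 fold change -1.51 ± 0.13 (SE), adjusted p = 6.93e-08). Pole2 was lower in every E15.5 library than in any E12.5 library of the same background, in both genotypes. Pole2 libraries of labelled knockout held 8.98 to 12.1 CPM at E15.5 and 24.9 to 32 CPM at E12.5 (log2 fold change -1.44), and those of Tg(Kat6b) 11.2 to 13.1 CPM at E15.5 and 25.4 to 32.7 CPM at E12.5 (-1.29). In FVBxBALB/c wild type Pole2 fell by 1.07 on the log2 scale. Pold2, a subunit of the lagging-strand polymerase delta (chromosome 11, 5872180 to 5878256), fell by 0.54 in labelled knockout and 0.50 in C57BL/6 wild type on the log2 scale. It missed the threshold in Tg(Kat6b), with 31.2, 37.5, 31.7 and 31.4 CPM at E15.5 and 31.6, 45.6, 41.3 and 39 CPM at E12.5 (log2 fold change -0.25, adjusted p = 0.186). In FVBxBALB/c wild type its libraries held 34.7, 29.6, 38 and 31.6 CPM at E15.5 and 30.5, 38.4, 41.2 and 54.5 CPM at E12.5 (-0.30, adjusted p = 0.106). Without wild-type replicate 1 at E12.5, the lowest library of that group, the Pold2 change was -0.42 with an adjusted p of 0.0215, and without replicate 4 at E12.5, the highest, it was -0.14 with an adjusted p of 0.396. Pold1, the catalytic subunit of the same polymerase, fell by 1.08 in C57BL/6 wild type, and Prim2, the large primase subunit, by 0.46.

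All 6 genes of the clamp and its loader fell in each of the 4 comparisons, with a median log2 fold change of -0.90 in C57BL/6 wild type against -1.25 for licensing genes. Rfc4 (chromosome 16, 23113948 to 23127730), a small subunit of the clamp loader, had 25.1, 29.8, 28.7, 32.3 and 30.4 CPM in wild-type C57BL/6 cortex at E15.5, against 74.2, 55.6 and 66.7 CPM at E12.5. Rfc4 at E15.5 stood at 0.448-fold (95% interval 0.377 to 0.532) of its E12.5 level (log2 fold change -1.16 ± 0.12 (SE), adjusted p = 5.17e-07). Rfc4 was lower in every E15.5 library than in any E12.5 library of the same background, in both genotypes. Rfc4 libraries of labelled knockout held 24.3 to 34.2 CPM at E15.5 and 52.8 to 67.8 CPM at E12.5 (log2 fold change -1.06), and those of Tg(Kat6b) 34.4 to 36.3 CPM at E15.5 and 47.7 to 72.3 CPM at E12.5 (-0.84). Pcna, the sliding clamp, fell by 0.88 in C57BL/6 wild type, and Rfc2, another small subunit, by 0.49 on the log2 scale.

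The 4 genes of single-strand binding and flap maturation fell in all 4 comparisons. Fen1 (chromosome 19, 10199132 to 10204393), the nuclease that trims the flaps between Okazaki fragments, had 38.7, 41.5, 42.9, 50.5 and 47.5 CPM in wild-type C57BL/6 cortex at E15.5, against 106, 88.9 and 101 CPM at E12.5. Fen1 at E15.5 stood at 0.449-fold (95% interval 0.377 to 0.535) of its E12.5 level (log2 fold change -1.15 ± 0.12 (SE), adjusted p = 6.44e-07). Fen1 was lower in every E15.5 library than in any E12.5 library of the same background, in both genotypes. Fen1 libraries of labelled knockout held 36.6 to 46.4 CPM at E15.5 and 75.6 to 112 CPM at E12.5 (log2 fold change -1.14), and those of Tg(Kat6b) 43.2 to 51.6 CPM at E15.5 and 71.9 to 99.8 CPM at E12.5 (-0.87). Lig1, the ligase that seals the fragments, fell by 1.03, and the single-strand binding subunits Rpa1 and Rpa2 by 0.87 and 1.09, in C57BL/6 wild type.

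The 3 genes of nucleotide supply fell in all 4 comparisons. Rrm2 (chromosome 12, 24708254 to 24714146), the regulatory small subunit of ribonucleotide reductase, had 130, 119, 107, 127 and 131 CPM in wild-type C57BL/6 cortex at E15.5, against 396, 315 and 319 CPM at E12.5. Rrm2 at E15.5 stood at 0.358-fold (95% interval 0.301 to 0.425) of its E12.5 level (log2 fold change -1.48 ± 0.12 (SE), adjusted p = 4.46e-08). Rrm2 was lower in every E15.5 library than in any E12.5 library of the same background, in both genotypes. Rrm2 libraries of labelled knockout held 90.7 to 127 CPM at E15.5 and 270 to 350 CPM at E12.5 (log2 fold change -1.45), and those of Tg(Kat6b) 122 to 148 CPM at E15.5 and 222 to 293 CPM at E12.5 (-1.002). Rrm1, its large subunit, fell by 1.12. Tyms, thymidylate synthase, had -1.22, a value that is uncertain because the files also count a pseudogene copy, Tyms-ps, with 95 to 1065 reads per library where Tyms had 348 to 4479.

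All 4 regulators of S-phase entry and replication-coupled events fell in every comparison. Uhrf1 (chromosome 17, 56303337 to 56323486), which links DNA methylation to replication, had 94.4, 94.5, 82.2, 99.5 and 86.5 CPM in wild-type C57BL/6 cortex at E15.5, against 261, 248 and 240 CPM at E12.5. Uhrf1 at E15.5 stood at 0.366-fold (95% interval 0.309 to 0.433) of its E12.5 level (log2 fold change -1.45 ± 0.11 (SE), adjusted p = 4.45e-08). Uhrf1 was lower in every E15.5 library than in any E12.5 library of the same background, in both genotypes. Uhrf1 libraries of labelled knockout held 72.3 to 92.7 CPM at E15.5 and 192 to 293 CPM at E12.5 (log2 fold change -1.51), and those of Tg(Kat6b) 105 to 126 CPM at E15.5 and 217 to 243 CPM at E12.5 (-1.02). In FVBxBALB/c wild type Uhrf1 had 104, 97.8, 106 and 107 CPM at E15.5 and 227, 260, 297 and 292 CPM at E12.5, with the smallest p of the list there (adjusted p = 8.64e-09). Ccne1, a cyclin of the G1/S transition, fell by 1.52, its relative Ccne2 by 1.07, and the transcription factor E2f1 by 1.01 in C57BL/6 wild type.

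**Figure D3:**
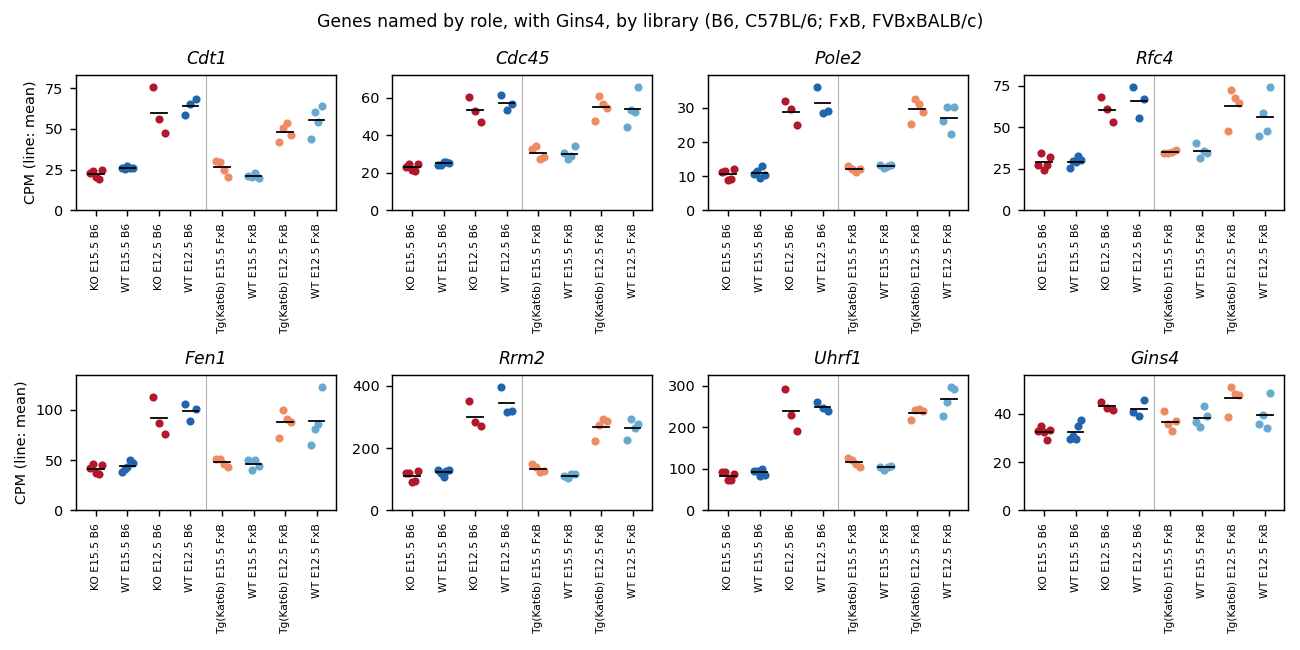
CPM in each library (points) and group mean (line) of the gene with the smallest p in each of 7 role classes, and of Gins4, by genotype and age within C57BL/6 (B6, left of the grey line) and FVBxBALB/c (FxB, right); KO is the labelled knockout. In C57BL/6 wild type, for example, Rrm2 lies between 107 and 131 CPM at E15.5 and between 315 and 396 CPM at E12.5, whereas the Gins4 libraries of FVBxBALB/c wild type overlap between the ages.

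Read per kilobase of gene length (RPKM, computed from the counts and the length column of the files), the levels of the 41 genes spanned a wide range. In C57BL/6 wild type the highest at E15.5 was Pcna, with 80.6 ± 4.75 RPKM against 149 ± 5.83 RPKM at E12.5. Rrm2 was the highest at E12.5, with 56.3 ± 4.56 RPKM at E15.5 against 157 ± 20.8 RPKM at E12.5, a difference between Rrm2 and Pcna at E12.5 that lies within the spread. Mcm7 had 68 ± 3.7 RPKM at E15.5 against 119 ± 5.22 RPKM at E12.5. The lowest was Orc1, with 1.74 ± 0.317 RPKM at E15.5 and 5.12 ± 1.29 RPKM at E12.5 (SD, n = 5 at E15.5 and 3 at E12.5 for all values here).

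Other genes of the pathway moved with them. Of 39 further replication genes, 33 fell in labelled knockout, 33 in C57BL/6 wild type, 32 in Tg(Kat6b) and 30 in FVBxBALB/c wild type, with medians of -0.94, -0.96, -0.75 and -0.65 in the same order, and 2, 2, 0 and 1 rose. In C57BL/6 wild type the exonuclease gene Exo1 had a log2 fold change of -1.83 ± 0.14 (SE) and Dbf4, the activator of the origin kinase Cdc7, had -1.21 ± 0.095 (SE). Of 20 genes of the G1/S and E2F network, 18, 18, 17 and 17 fell and 2, 2, 1 and 1 rose. Among those that fell was E2f2 (-1.40 ± 0.11 (SE) in C57BL/6 wild type). All 30 mitosis and spindle genes fell in each of the 4 comparisons, with medians of -1.27, -1.23, -0.86 and -0.998.

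Markers of the cells of the cortical wall shifted as well. All 15 genes of postmitotic neurons rose in every comparison, with a median log2 fold change of 1.54 in C57BL/6 wild type. Of 15 genes of apical progenitors, 12 fell in labelled knockout, 12 in C57BL/6 wild type, 11 in Tg(Kat6b) and 12 in FVBxBALB/c wild type, while 2, 2, 3 and 2 rose. Pax6 was among those that fell (-0.999 ± 0.077 (SE) in C57BL/6 wild type). Of 12 meningeal and mesenchymal genes, 9, 9, 11 and 11 fell, and none rose. Their sum was 77.1 to 346 CPM in labelled knockout at E15.5 against 475 to 2720 CPM at E12.5, and 86.9 to 226 CPM against 601 to 1740 CPM in C57BL/6 wild type. In Tg(Kat6b) it was 75.7 to 94.9 CPM at E15.5 against 319 to 1597 CPM at E12.5, and in FVBxBALB/c wild type 81.2 to 114 CPM against 475 to 2418 CPM. Each of the 12 had reads in every library, except that at E15.5 Mgp had none in replicate 2 of labelled knockout, and neither Lum nor Mgp had any in replicate 4 of FVBxBALB/c wild type. Of 8 erythroid genes tested, 7, 7, 4 and 5 fell and 1, 1, 1 and 0 rose, and of 10 endothelial and pericyte genes 4, 4, 5 and 7 fell and 2 rose each time. Of 10 genes of intermediate progenitors, more rose (5, 5, 6 and 5) than fell (4, 3, 2 and 2), with median log2 fold changes of 0.25, 0.31, 0.53 and 0.26. Of 8 microglial genes 2, 4, 4 and 5 rose and none fell. The part of these cells in the fall of the replication genes was not tested.

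No replication gene's change with age differed past the threshold between C57BL/6 and FVBxBALB/c wild type. The change with age in C57BL/6 minus that in FVBxBALB/c was below 0 for 38 of 41 genes, with a median log2 difference of -0.19 against -0.0031 for all genes, and 0 of 41 were called by edgeR, DESeq2 or limma-voom, against 0.0305% of all genes by edgeR. Without C57BL/6 wild-type replicate 1 at E12.5 this median was -0.11 with 32 genes below 0, and without FVBxBALB/c wild-type replicate 1 at E12.5 it was -0.11 with 35. Other lists moved too, with none of their genes called: 12 of 12 meningeal and mesenchymal genes were above 0 (median 0.70), 28 of 30 mitosis genes (-0.23) and 8 of 8 genes of dorsal telencephalon identity (-0.32) below 0. The part of these lists in the replication genes was not tested. At an unadjusted p below 0.05 there were 8 of 41, all below 0, and 1086 of 16399 genes tested. The smallest p was that of Orc6 (-0.37 ± 0.11 SE, 95% interval -0.59 to -0.15, adjusted p = 0.486), followed by Pole2 (-0.46, adjusted p = 0.643) and Prim1, the catalytic primase subunit (-0.32, adjusted p = 0.648). In simulated counts with a true 2-fold difference in 200 genes, this test recovered 117, against 191 for the change with age in C57BL/6 wild type and 199 in FVBxBALB/c wild type. The simulation used the same dispersion, 0.03, for all genes and changed only well-counted genes. The differences of the 41 genes lay between -0.51 and 0.20 on the log2 scale, less than 2-fold. The recovery therefore does not tell how many differences of that size would be found. Background and batch cannot be told apart in this comparison.

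By genotype, no replication gene differed past the threshold. In labelled knockout against wild type, 0 of 41 genes were called at E15.5 and 0 of 41 at E12.5, against 0% and 0.00620% of all genes tested. In Tg(Kat6b) against wild type 0 of 41 were called at either age, against 0.0129% at E15.5 and 0.0129% at E12.5. DESeq2 and limma-voom also called 0 of the 41 in each. At an unadjusted p below 0.05 edgeR had 1 of 41 in labelled knockout at E15.5 and 1 of 41 at E12.5 (456 and 842 of 16118 genes tested), and 4 of 41 in Tg(Kat6b) at E15.5 and 3 of 41 at E12.5 (346 and 1039 of 15556). Over the 41 genes, the log2 fold change lay between -0.22 and 0.091 in labelled knockout at E15.5 and between -0.36 and 0.061 at E12.5. In Tg(Kat6b) it lay between -0.12 and 0.33 at E15.5 and between -0.28 and 0.30 at E12.5. A p that misses the threshold does not show that the genotypes have equal levels.

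**Figure D4:**
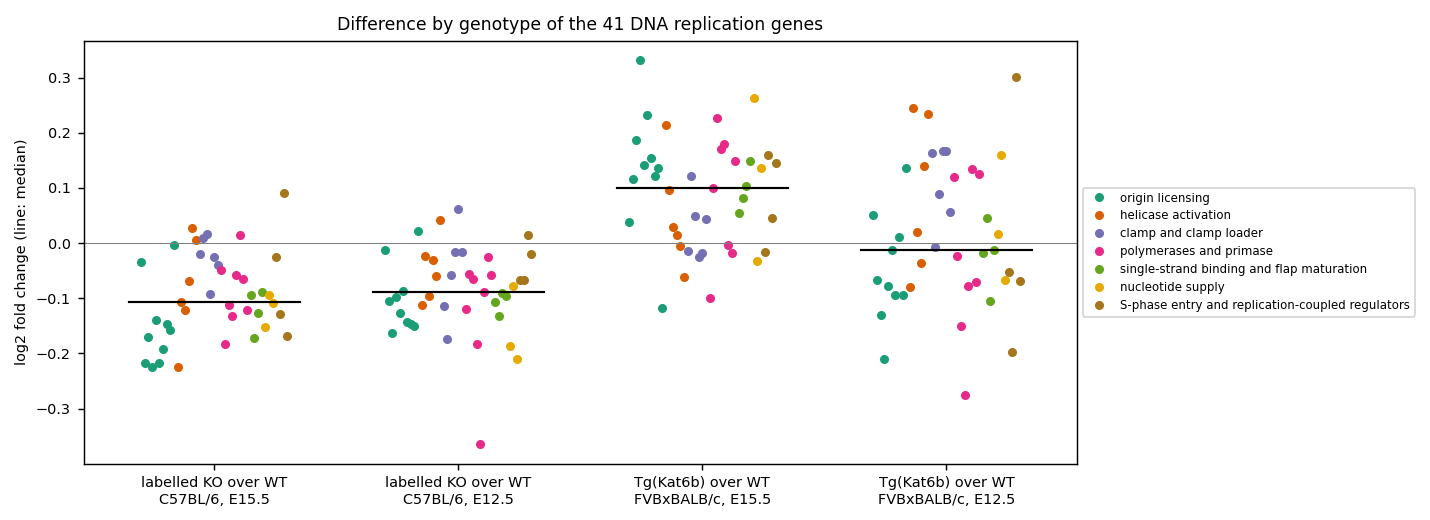
Log2 fold change of each of the 41 genes (points, coloured by role) in labelled knockout or Tg(Kat6b) over wild type at each age; the black line is the median of the genes. The points stay between -0.36 and 0.33, with medians of -0.11 at E15.5 and -0.088 at E12.5 in labelled knockout, and of 0.10 at E15.5 and -0.012 at E12.5 in Tg(Kat6b).

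At E15.5, 35 of 41 estimates in labelled knockout were below 0, with a median of -0.11 where that of all genes was 0.0077. Mcm10 had 19.9, 21.5, 18.6, 18.2 and 21.5 CPM in labelled knockout and 21, 24.2, 23.8, 25.3 and 22.2 CPM in wild type (log2 fold change -0.22 ± 0.094 (SE), adjusted p = 1). Cdt1 had 22.6, 23.8, 20.5, 19.4 and 24.9 CPM in labelled knockout against 25.7, 25.5, 27.3, 25.9 and 25.8 CPM in wild type, without overlap (log2 fold change -0.22 ± 0.11 (SE), adjusted p = 1), and E2f1 28.5, 28.2, 24.9, 24.5 and 27.3 against 30.7, 29.1, 30.1, 33.7 and 26.8 CPM (-0.17, adjusted p = 1). Mcm2 was the only other gene of the 41 whose libraries did not overlap, at 77.4 to 98.96 CPM in labelled knockout and 98.97 to 115 CPM in wild type, where the nearest libraries all but touch. How many of all genes tested had libraries without overlap was not counted, so whether this is particular to the list is not known. Labelled knockout replicates 3 and 4 had summed levels of 1977 and 2004 CPM where the other 3 had 2246, 2391 and 2392 and wild type 2332, 2318, 2339, 2520 and 2401 CPM. Without both, the median was -0.015 with 25 of 41 genes below 0, and with both counted as 1 library, a choice made after the data were seen, it was -0.075 with 31. Without both, the log2 fold change was -0.16 for Mcm10, -0.13 for Cdt1 and -0.10 for E2f1. Leaving out replicate 4 alone gave a median of -0.066 with 33 below 0, and leaving out replicate 3 alone -0.082 with 31.

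The same 2 libraries were high in meningeal and mesenchymal markers, whose 12 genes summed to 119, 77.1, 346, 337 and 87.3 CPM in labelled knockout replicates 1 to 5, against 95.4, 103, 226, 105 and 86.9 CPM in wild type. Wild-type replicate 3 was also high in these markers, at 226 CPM, with a summed replication level of 2339 CPM. All 12 markers had estimates above 0 in labelled knockout at E15.5, with a median log2 fold change of 0.55, and none was called. Of the 30 mitosis and spindle genes, 29 were below 0, with a median of -0.14. Their sums were 2053 and 2051 CPM in labelled knockout replicates 3 and 4, 2527 to 2734 CPM in the other 3 and 2389 to 2752 CPM in wild type. Below 0 were also 20 of 20 G1/S and E2F network genes (median -0.11) and 31 of 39 further replication genes (-0.068). All 8 genes of dorsal telencephalon identity were below 0 as well (median -0.19), with sums of 1987, 1955, 1513, 1478 and 2026 CPM in labelled knockout replicates 1 to 5 and 1851 to 2251 CPM in wild type. So were 12 of 15 apical progenitor genes (median -0.13; 2782 to 2849 CPM in labelled knockout, 2830 to 3111 CPM in wild type) and 8 of 9 genes of the ventral telencephalon (-0.21; 692 to 909 CPM in labelled knockout, 795 to 945 CPM in wild type). Of 10 endothelial and pericyte genes 8 were above 0 (median 0.12), with sums of 343 and 344 CPM in labelled knockout replicates 3 and 4, 250 to 271 CPM in the other 3 and 256 to 299 CPM in wild type. No gene of these lists was called. The dorsal telencephalon and apical progenitor lists share genes such as Pax6, so their shifts are not separate observations. The part of these differences in the replication genes was not tested.

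**Figure D5:**
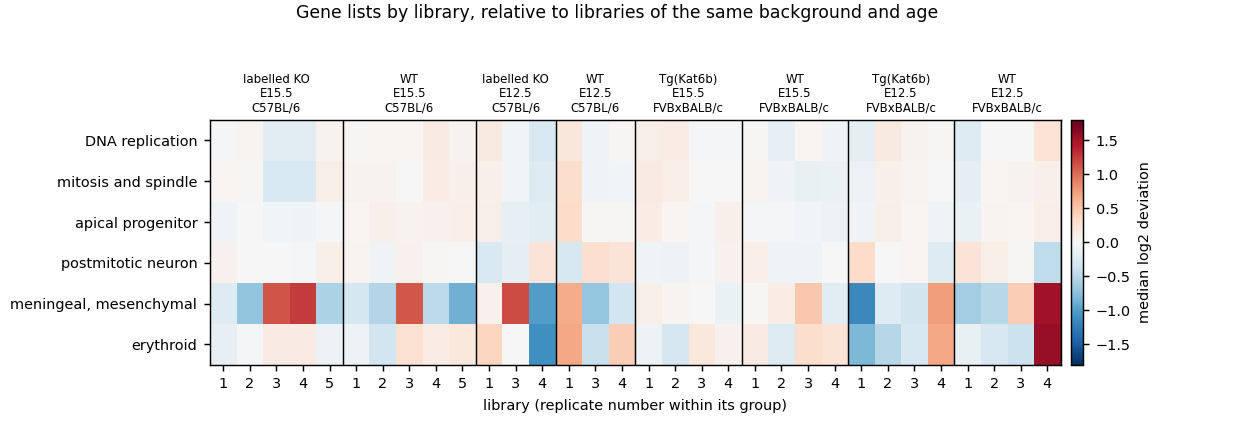
Median log2 deviation of 6 gene lists in each library from the mean of the libraries of the same background and age, red above and blue below. In labelled knockout cortex at E15.5, replicates 3 and 4 are at -0.20 and -0.20 for DNA replication and at 1.13 and 1.26 for meningeal and mesenchymal markers; wild-type replicate 3 is at 0.039 and 1.12.

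At E12.5, 37 of 41 estimates in labelled knockout were below 0, with a median of -0.088 where that of all genes was -0.013. The smallest p was that of Pola1, the catalytic subunit of polymerase alpha, with 78.2, 71.2 and 56.2 CPM in labelled knockout and 117, 74.7 and 73.4 CPM in wild type (log2 fold change -0.36 ± 0.16 (SE), adjusted p = 0.881). Wild-type replicate 1 stood above the rest, and without it the log2 fold change was -0.11, and without labelled knockout replicate 4 it was -0.24. Rrm1 had 490, 419 and 342 CPM in labelled knockout against 554, 432 and 461 CPM in wild type (-0.21, adjusted p = 0.881), and Rfc1, the large subunit of the clamp loader, 148, 130 and 101 against 167, 128 and 132 CPM (-0.17, adjusted p = 0.89). Without labelled knockout replicate 4 these were -0.088 for Rrm1 and -0.037 for Rfc1, without wild-type replicate 1 -0.096 and -0.042, and without labelled knockout replicate 1 -0.33 and -0.29. The libraries of the genotypes overlapped for all 41 genes, and the share over all genes tested was not counted. Leaving out single libraries moved the median: it was 0.0098 with 17 genes below 0 without labelled knockout replicate 4, -0.010 with 24 without wild-type replicate 1, -0.20 with 38 without labelled knockout replicate 1 and -0.14 with 38 without wild-type replicate 3. Of these fits, only those without a replicate 1 leave a library of the other genotype without a partner of the same litter. With the litter as a block the median was -0.097 with 37 genes below 0, and none was called. Between libraries of the same number, the summed level was lower in labelled knockout in 3 of 3 pairs, with differences of -147, -60.3 and -956 CPM, where replicates 3 and 4 came from 1 litter. Summed meningeal and mesenchymal markers were 1226, 2720 and 475 CPM in labelled knockout and 1740, 601 and 788 CPM in wild type at this age, with estimates above 0 for all 12. All 8 genes of dorsal telencephalon identity were below 0 (median -0.28), with sums of 1986, 1459 and 1436 CPM in labelled knockout and 2095, 2043 and 2057 CPM in wild type, and all 9 genes of the ventral telencephalon above 0 (0.14; 612, 683 and 1083 CPM in labelled knockout, 329 to 972 CPM in wild type). All 8 erythroid genes were below 0 (median -0.35), with sums of 3261, 2305 and 1225 CPM in labelled knockout and 1905 to 3548 CPM in wild type. Below 0 as well were 27 of 30 mitosis and spindle genes (median -0.12) and 18 of 20 G1/S and E2F network genes (-0.12). So were 12 of 15 apical progenitor genes (-0.17) and 11 of 15 postmitotic neuron genes (-0.21). Postmitotic neuron sums were 3322, 3467 and 4677 CPM in labelled knockout and 3231, 4598 and 4435 CPM in wild type. Labelled knockout replicate 4 was thus the lowest library of its group in the replication, dorsal and erythroid sums. It was the highest in the ventral and postmitotic neuron sums. None of these genes was called, and their part in the replication genes was not tested. Both replicates 1 came from 1 litter and had the highest summed levels of their groups, 5442 CPM in labelled knockout and 5589 CPM in wild type.

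In Tg(Kat6b) cortex at E15.5, 30 of 41 estimates were above 0, with a median of 0.10 against 0.0028 for all genes. Rrm2 had 148, 141, 122 and 125 CPM in Tg(Kat6b) and 110, 106, 115 and 116 CPM in wild type, without overlap (log2 fold change 0.26 ± 0.099 (SE), adjusted p = 1). Cdt1 had 30.2, 29.7, 24.7 and 20.6 against 20.9, 20.2, 22.9 and 19.8 CPM (0.33, adjusted p = 1), and Mcm2 had 121, 121, 113 and 102 against 96.8, 89.4, 104 and 98.6 CPM (0.23, adjusted p = 1), with 1 Tg(Kat6b) library inside the wild-type range in each. The libraries of Rfc1, Rpa1 and Rrm1 also did not overlap, the Tg(Kat6b) ones being higher. The share of all genes tested whose libraries did not overlap was not counted, so whether this is particular to the list is not known. All 30 mitosis and spindle genes had estimates above 0 (median 0.13), and none was called. The median of the 41 genes stayed above 0 when any 1 library was left out, between 0.052 (16 below 0) without Tg(Kat6b) replicate 2 and 0.13 without Tg(Kat6b) replicate 3. All 8 genes of dorsal telencephalon identity were above 0 (median 0.25), with sums of 2458, 2222, 2230 and 2895 CPM in Tg(Kat6b) and 2352, 1973, 2082 and 2096 CPM in wild type. So were 13 of 15 apical progenitor genes (median 0.20; 3383 to 3804 CPM in Tg(Kat6b), 3179 to 3472 CPM in wild type) and 10 of 10 intermediate progenitor genes (0.12; 1390 to 1671 CPM in Tg(Kat6b), 1316 to 1487 CPM in wild type). None was called, and their part in the replication genes was not tested. Meningeal sums overlapped at this age, 94.7, 90.8, 94.9 and 75.7 CPM in Tg(Kat6b) and 84.3, 88.9, 114 and 81.2 CPM in wild type.

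In Tg(Kat6b) tissue at E12.5, 22 of 41 estimates were below 0 and the median was -0.012. Uhrf1 had 217, 241, 243 and 238 CPM in Tg(Kat6b) and 227, 260, 297 and 292 CPM in wild type (log2 fold change -0.20 ± 0.086 (SE), adjusted p = 0.743). Pole, the catalytic subunit of polymerase epsilon, had 112, 80.9, 76 and 87.2 CPM against 96.3, 114, 130 and 91.5 CPM in wild type (-0.28, adjusted p = 0.743), and without wild-type replicate 3 this was -0.17. Ccne2 went the other way, with 27.3, 27.9, 26.7 and 29.2 CPM in Tg(Kat6b) and 24.5, 26.9, 20.2 and 18.7 CPM in wild type (0.30, adjusted p = 0.743). None of the 41 genes separated the genotypes, and the share over all genes tested was not counted. Without wild-type replicate 4, which had the highest summed replication level (5528 CPM) and the highest meningeal (2418 CPM) and erythroid (8898 CPM) sums of its group, the median was 0.11 with 11 genes below 0. It was 0.061 with 13 without Tg(Kat6b) replicate 1, the lowest library of its group in the replication sum (4133 CPM), and -0.085 with 26 without wild-type replicate 1 (3963 CPM). In postmitotic neuron sums, wild-type replicate 4 was the lowest of its group (3170 CPM) and wild-type replicate 1 the highest (5048 CPM). Tg(Kat6b) replicate 1 was the highest of its group (5675 CPM). Of 30 mitosis and spindle genes 16 were below 0 (median -0.0087). Below 0 were also 11 of 12 meningeal and mesenchymal genes (-0.64) and 7 of 8 erythroid genes (-0.66). So were 10 of 10 endothelial and pericyte genes (-0.22) and all 5 caudal brain genes tested (-0.88). Above 0 were 8 of 9 ventral telencephalon genes (0.22), 6 of 8 dorsal telencephalon genes (0.058) and 9 of 15 postmitotic neuron genes (0.025). No gene of these lists was called. The part of these lists in the replication genes was not tested.

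Neither genotype difference changed with age past the threshold. The labelled knockout difference at E15.5 minus that at E12.5 had a median of -0.023 over the 41 genes, and 0 of 41 were called, against 0% of all genes; 0 of 41 had an unadjusted p below 0.05, against 438 of 16118 genes. The sign of this median depended on single libraries: it was 0.10 with 5 of 41 below 0 without labelled knockout replicate 1 at E12.5, 0.026 with 14 without wild-type replicate 3 at E12.5, 0.0061 with 18 without labelled knockout replicate 4 at E15.5, 0.052 with 10 without labelled knockout replicates 3 and 4 at E15.5, and -0.11 with 35 without labelled knockout replicate 4 at E12.5. For Tg(Kat6b) the median was 0.073, 0 of 41 were called, against 0% of all genes, and 5 of 41 had an unadjusted p below 0.05, against 628 of 15556. This median was -0.041 with 23 of 41 below 0 without wild-type replicate 4 at E12.5, -0.012 with 21 without Tg(Kat6b) replicate 1 at E12.5 and 0.19 with 11 without wild-type replicate 1 at E12.5. Among the 5 genes, Uhrf1 (0.36, 95% interval 0.097 to 0.61), Cdt1 (0.54, 0.15 to 0.94), Pole (0.45, 0.075 to 0.82) and Pold1 (0.38, 0.0097 to 0.74) were above 0 and Orc6 (-0.25, -0.50 to -0.0046) below, all with an adjusted p of 0.999984. DESeq2 and limma-voom called none of the 41 in either.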

How the data were processed

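Total RNA from 32 mouse tissue samples was sequenced as 66 bp paired-end reads, per the labels. The deposited files hold raw counts per gene, made with featureCounts on mm10 after bcl2fastq, per the submitters' processing notes; their versions and the aligner are not given in the sources used. TruSeq v2 libraries do not mark strand, so reads of overlapping antisense genes cannot be told apart. Each file has 27179 rows, of which 848 name no gene and were left out (0.305% to 2.00% of counts).

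Counts were tested with edgeR 4.0.16 (R 4.3.3): genes passing filterByExpr (minimum count 10, minimum total 15), TMM scaling and a robust quasi-likelihood fit, 1 per background (16 libraries and 12 residual degrees of freedom each) and 1 of all 32 libraries (24 residual degrees of freedom) for the age by background term. P-values are two-sided and adjusted by Benjamini-Hochberg over all genes tested (16118, 15556 and 16399), and a gene was called below 0.05. CPM use TMM-scaled library sizes; 95% intervals and standard errors come from the fit. List deviations used a pseudocount of 0.5 on the log2 scale. Values per library are given for the gene with the smallest p for age in C57BL/6 wild type in each of 7 role classes, for genes whose wild-type age change was not called in both backgrounds, and for the 3 genes with the smallest p in each genotype comparison; other members that are named were chosen after their values were seen. The members and lists were chosen with earlier results of these data known. Some marker genes are in more than 1 list, such as Pax6 in the apical progenitor and dorsal telencephalon lists.

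Simulated counts had the same dispersion, 0.03, for all genes, with 200 well-counted genes changed 2-fold. The pipeline recovered 191 for age in C57BL/6 wild type, 199 for age in FVBxBALB/c wild type and 117 for the age by background term. It made 10, 14 and 6 false calls. In C57BL/6, same-numbered libraries of an age share a litter per the labels. At E12.5 replicates 3 and 4 of both genotypes came from 1 litter, so there the litter does not tell which of them pair. In FVBxBALB/c nothing in the labels pairs the libraries. Correlations of same-numbered libraries ranged from -0.43 to 0.43 in C57BL/6 and from -0.20 to 0.65 in FVBxBALB/c. DESeq2 1.42.0, limma-voom (limma 3.58.1), upper-quartile scaling, no filter, fits of the compared libraries alone, replicate and litter blocks, and fits leaving libraries out were tried. Promoter windows come from RefSeq.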

Additional observations from a re-analysis of the deposited data

Results flagged for a closer look

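Of 114 sets of values tested, the CPM of 18 named genes and the summed CPM of the 41 genes in each group of 4 or 5 libraries, 2 had a library that stood apart from the others by Dixon's criterion at the 95% level, and chance sets apart about 1 in 20. Cdt1 had 27.3 CPM in C57BL/6 wild-type replicate 3 at E15.5, where the other 4 libraries of the group lay between 25.5 and 25.9 CPM. Pold2 had 37.5 CPM in Tg(Kat6b) replicate 2 at E15.5, where the other 3 lay between 31.2 and 31.7 CPM.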

How the results depend on the processing

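The number of replication genes that fell with age stayed at 41 of 41 in labelled knockout and in C57BL/6 wild type under every alternative run. In Tg(Kat6b) it was 39 to 40, or 38 to 40 when 1 library was left out. In FVBxBALB/c wild type it was 38 to 39, or 37 to 39 when 1 library was left out. All genotype, genotype by age and background counts stayed at 0. With the replicate number as a block the counts were 41 in labelled knockout and 41 in C57BL/6 wild type. They were 39 in Tg(Kat6b) and 38 in FVBxBALB/c wild type, and 0 for each genotype comparison. For the changes with age this block joins different embryos of the 2 ages by number alone, a pairing that the labels do not give. The gene lost in Tg(Kat6b) was Gins4 (-0.34, adjusted p = 0.0609 by edgeR). In FVBxBALB/c wild type the Gins4 change with age, not called in any fit, was 0.071 without E12.5 replicate 4 and 0.0038 without E15.5 replicate 2, within a range of -0.11 to 0.071. Pold2 there was called in the fit of all 32 libraries (-0.30, adjusted p = 0.0362) and without E12.5 replicate 1, while without E12.5 replicate 4 it was -0.14. The cause was not tested. Counting reads of labelled knockout replicates 3 and 4 at E15.5 as 1 library was chosen after seeing the data. The 3 libraries per genotype at E12.5 in C57BL/6 limit what differences could be called, and counts over the whole gene do not check the knockout label.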
